A study of Rattus norvegicus with 10 samples.

Results

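The genes described here stood apart in 1 of 5 lines of a rat liver cell line, the line transfected with a scrambled control sequence. A probe set was taken as high where both scrambled arrays were at least 2.5 times the highest of the other 8 arrays and at least 100. It was taken as low where both were at most 0.4 times the lowest of the other 8 and that lowest was at least 100. Only probe sets annotated with 1 gene symbol were used, array controls were left out, and 7 genes were left out by name. These rules gave 20 high probe sets of 19 genes and 26 low probe sets of 23 genes, so 46 probe sets of 42 genes out of 20818 probe sets. A further 1 high and 4 low probe sets belonged to the 7 genes left out and are not reported here. The genes were chosen by the deposited intensities of all 10 arrays, so their distance from the other lines is given as a description, with no test.

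HSC-2 is a hepatic stellate cell line of the Wistar rat. The 5 lines were the untransfected cells, the line with the scrambled control sequence (which the series text calls GFPscr), and the clones S1, S4 and S5, transfected to overexpress the microRNA rno-miR-146a. Each line was grown in high-glucose medium with 10% serum and measured once at passage 42 and once at passage 43 on an Affymetrix rat array, giving 10 arrays. The study named the untransfected and the scrambled line as its controls. Each overexpressing line is 1 clone, and the labels do not say whether the scrambled line is a clone or a pool. There was 1 scrambled line, so the scrambled sequence, the transfection and the history of that line cannot be told apart. The labels do not describe the passages as separate cultures, so each p-value here reflects only how far these arrays scatter, and that scatter may be technical.

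Hepatic stellate cells lie beside the liver sinusoids and store retinoids. After injury they become contractile, matrix-producing cells: they assemble actin filaments with tropomyosin and lay down collagens and laminins. They hold on to the matrix through integrins and to neighbouring cells through cadherins. Metalloproteases and their tissue inhibitors set how fast that matrix is turned over, and a scrambled control line is normally used to separate the effect of an introduced sequence from that of transfection itself.

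Array medians lay between 97.7 and 103.74 intensity units, and 14.6% of all values were exactly 20, the lowest value in the table, below which values have no order. Of the 18 stellate cell markers, Col1a1, Col1a2, Col3a1 and Vim read 17936 or more on every array, and Timp1 and Spp1 between 1329 and 4718. Bambi and Pdgfrb read between 226 and 1668, and Hand2, Pdgfra, Nes, Des and Lhx2 between 48.0 and 834. Cygb read between 32.2 and 57.2, and Gfap, Reln, Ngfr and Hgf were near the lowest value, between 20 and 41.5. Summed markers of hepatocytes (11 genes, 0 called by limma, 1 at an unadjusted p under 0.05) were 562 and 585 in the scrambled line and 537 to 604 elsewhere, with Alb between 30.6 and 38.4. The 15 macrophage and leukocyte markers summed to 1364 to 1394 against 1250.5 to 1505 elsewhere (2 called higher, Csf1r and Cd3e, both at most 62.7 on every array), with Ptprc at or next to the lowest value. The 11 endothelial markers summed to 1248 to 1264 against 1000.4 to 1215 (1 higher, Flt1). The 10 epithelial markers summed to 1765 to 1886 against 1979 to 5413 (0 called, 1 at an unadjusted p under 0.05). Most of that sum in the scrambled line was Spp1, also a stellate marker, at 1478 and 1329 against 1553 to 4718 elsewhere. Krt18, Krt19 and Cftr were at or next to the lowest value. The 18 markers of portal fibroblasts, mesothelium and smooth muscle summed to 15861 to 17769 against 7300.5 to 23148, with Thy1 and Msln called higher and Actg2, Lmod1 and Mcam lower. The 18 stellate markers summed to 91033 to 93387 against 95097 to 106551, with Des higher and Bambi lower. Without the passage 43 array of the scrambled line limma called 0 macrophage, 0 endothelial and 0 stellate markers, and 1 higher and 1 lower of the portal fibroblast list. What part such cells have in the values below was not tested.

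In the high direction the lower scrambled array was 2.51 to 8.09 times the highest other array, with a median of 3.34, and in the low direction the lowest other array was 2.53 to 10.4 times the higher scrambled array, with a median of 3.28. On the log2 scale the scrambled line lay a median of 2.72 above the mean of the other 4 lines for the high probe sets and a median of -2.78 from it for the low ones. In limma's comparison of the scrambled line with the mean of the other 4 lines, 6.54% of all probe sets were called, 2.65% higher and 3.9% lower. That comparison uses the values that chose the genes, so it is no test of them. The scrambled passages lay within 1.5 times of each other for 15 of the 20 high and 21 of the 26 low probe sets. Just inside the high limit were Abca1 at 2.51 and Ces5a at 2.55, and just outside were H19 at 2.33 and C3h15orf48 at 2.30. Just inside the low limit were Vldlr at 2.53 and Itga11 at 2.55, and just outside were a pair of Tpm1 probe sets at 2.47 and 2.46. In what follows, paired values are intensities at passages 42 and 43, clone values are the lowest, the median and the highest of 6 arrays, and a log2 difference is the scrambled line minus the mean of the other 4 lines, with the SD over those 4 lines (n = 4).

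**Figure D1:**
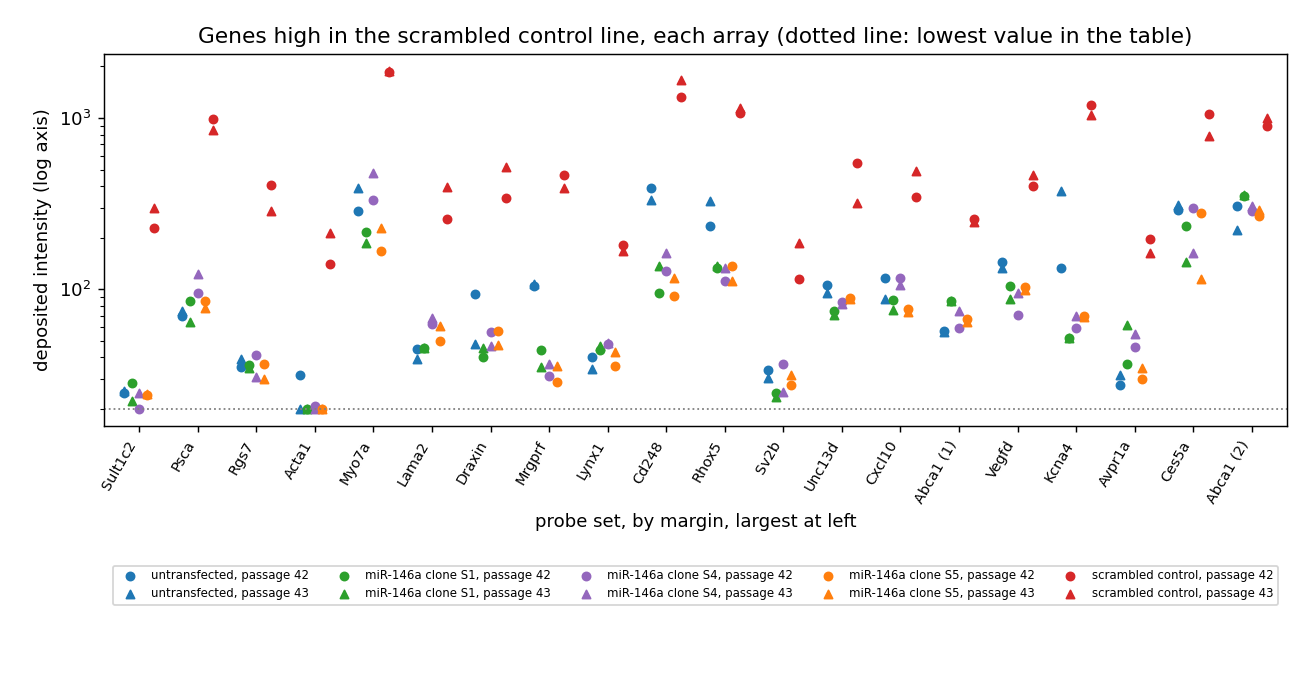
Deposited intensity (log axis) of the 20 high probe sets on each of the 10 arrays, ordered by margin; colours are lines, circles passage 42 and triangles passage 43, and the dotted line is the lowest value in the table, 20. Both scrambled arrays sit above the other 8 for every probe set, as the rule requires, and the untransfected arrays sit above the clones for Mrgprf, Cd248, Rhox5, Kcna4 and Vegfd among others.

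Among the high genes, the cytoskeletal and matrix ones included a muscle actin and a laminin chain. Acta1, the actin of skeletal muscle, read 141 and 213 in the scrambled line, 31.4 and 20 in the untransfected line, and 20, 20 and 20.9 on the clone arrays. Of the 8 other arrays 6 were at the lowest value, so Acta1 was barely detected outside the scrambled line and its log2 difference of 3.03 ± 0.16 depends on that floor. Lama2, the laminin alpha 2 chain of basement membranes around muscle, read 256 and 395 in the scrambled line, 45.0 and 38.9 in the untransfected line, and 45.2, 55.5 and 68.0 on the clone arrays. Both scrambled arrays were several times any other array, and the log2 difference was 2.64 ± 0.29. Myo7a, an unconventional myosin best known from sensory hair cells, read 1849.8 and 1880.5 in the scrambled line, 286 and 389.9 in the untransfected line, and 167, 222 and 475 on the clone arrays. Its clones differed among themselves, clone S4 being highest at 330.5 and 475, and overlapped the untransfected line.

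The promoters of these genes are shown because Acta1 and many contractile genes are controlled through CArG boxes, the sites of serum response factor, and lie in opposite directions here. RefSeq promoters of GRCr8, from 250 bases before to 50 bases after each annotated start, were found for 14 of the 19 high genes (15 promoters) and 17 of the 23 low genes (19 promoters). Both strands were searched for the CArG box, TATAAA (the core promoter box), CATTCC (the TEAD site), TGANTCA (the AP-1 site), GAAANNGAA (the interferon-response site) and GGGCGG (the Sp1 site). Capitals mark matches in the 250 bases before the start of Acta1, of Lama2 and Cxcl10, both high, and of Tpm1 and Cd81, the contractile gene with several low probe sets and the low gene with the widest margin. 
Acta1 promoter (chr19:68784195-68784444, strand -): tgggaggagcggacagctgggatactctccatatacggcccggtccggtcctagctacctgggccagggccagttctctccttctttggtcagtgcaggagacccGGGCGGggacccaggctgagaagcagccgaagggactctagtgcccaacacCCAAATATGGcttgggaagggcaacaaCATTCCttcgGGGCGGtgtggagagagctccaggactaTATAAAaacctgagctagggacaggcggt
Lama2 promoter (chr1:19491896-19492145, strand +): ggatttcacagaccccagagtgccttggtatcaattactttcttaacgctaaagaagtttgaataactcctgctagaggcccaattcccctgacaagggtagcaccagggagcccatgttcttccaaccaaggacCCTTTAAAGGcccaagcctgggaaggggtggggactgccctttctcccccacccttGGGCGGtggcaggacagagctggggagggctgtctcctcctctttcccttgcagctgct
Cxcl10 promoter (chr14:15988816-15989065, strand +): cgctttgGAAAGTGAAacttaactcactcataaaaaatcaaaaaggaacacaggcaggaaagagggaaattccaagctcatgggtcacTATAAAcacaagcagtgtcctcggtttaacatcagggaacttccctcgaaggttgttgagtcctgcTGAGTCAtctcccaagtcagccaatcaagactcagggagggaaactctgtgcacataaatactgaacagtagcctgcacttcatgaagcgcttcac
Tpm1 promoter (chr8:76543416-76543665, strand -): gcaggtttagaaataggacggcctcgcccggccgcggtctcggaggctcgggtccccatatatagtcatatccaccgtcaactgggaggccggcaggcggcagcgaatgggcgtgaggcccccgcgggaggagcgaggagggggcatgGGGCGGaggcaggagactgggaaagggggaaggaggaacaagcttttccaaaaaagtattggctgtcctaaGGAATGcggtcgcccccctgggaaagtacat
Cd81 promoter (chr1:207665047-207665296, strand +): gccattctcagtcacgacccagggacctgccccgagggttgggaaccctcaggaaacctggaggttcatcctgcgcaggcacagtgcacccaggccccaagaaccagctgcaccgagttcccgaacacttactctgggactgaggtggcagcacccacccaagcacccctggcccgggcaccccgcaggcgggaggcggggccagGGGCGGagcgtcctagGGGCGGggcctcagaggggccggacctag

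CArG boxes were found in 2 of 15 high promoters and 0 of 19 low promoters, beside 1.64% of all 33469 promoters of this length. The Acta1 match was CCAAATATGG, starting 94 bases before the annotated start, and the Lama2 match was CCTTTAAAGG, starting 115 bases before it. TATAAA was in 5 high promoters (Abca1, Acta1, Avpr1a, Cxcl10 and Vegfd) and 1 low promoter (Cd81, inside the transcribed bases), beside 14.2% of all promoters. It started 32 and 29 bases before the annotated start in Abca1 and Acta1, but 212, 162 and 106 bases before it in Avpr1a, Cxcl10 and Vegfd. CATTCC was in 2 high promoters (Acta1, and Cxcl10 inside the transcribed bases) and 2 low ones (Lims2 and Tpm1), beside 14.2% of all. The interferon-response letters were in 2 high promoters (Cxcl10 and Sult1c2) and 1 low one (Mme), beside 9.71% of all, and TGANTCA in 1 of each (Cxcl10 and Pde4b), beside 7.33%. GGGCGG was in 6 high and 12 low promoters, beside 33.1% of all. A match describes letters in this window and is no evidence of binding.

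The high genes with the widest margins encoded an enzyme, a surface antigen and a signalling inhibitor. Sult1c2, a cytosolic sulfotransferase, read 229 and 298 in the scrambled line, 24.7 and 25.3 in the untransfected line, and 20, 24.3 and 28.3 on the clone arrays. The 8 other arrays lay between 20 and 28.3, and the log2 difference was 3.44 ± 0.08. Psca, a lipid-anchored surface protein of the Ly6 family, read 985 and 851 in the scrambled line, 69.4 and 75.0 in the untransfected line, and 64.5, 85.3 and 122 on the clone arrays. Untransfected and clone arrays overlapped, and the log2 difference was 3.47 ± 0.26. Rgs7, which speeds the shut-off of G proteins of the Gi class, read 406 and 285 in the scrambled line, 35.4 and 39.3 in the untransfected line, and 29.8, 35.6 and 41.5 on the clone arrays. Here too the other lines overlapped, at a log2 difference of 3.27 ± 0.07.

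Several other high genes sit on the cell surface. Lynx1, a second Ly6-family protein, known for restraining nicotinic acetylcholine receptors, read 182 and 168 in the scrambled line, 40.2 and 34.4 in the untransfected line, and 35.4, 45.2 and 48.2 on the clone arrays. Its other probe set did not stand apart, at 194 and 165 in the scrambled line against 109 to 170.2 elsewhere. Cd248 (endosialin), a surface protein of pericytes and fibroblasts, read 1334 and 1664 in the scrambled line, 390.2 and 331 in the untransfected line, and 91.3, 122 and 163 on the clone arrays. The lines thus fell in 3 levels, with the untransfected arrays above all 6 clone arrays and the scrambled arrays above both, on this probe set, while its other probe set was level at 69.2 to 80.8 on all 10 arrays. Mrgprf, an orphan receptor of the Mas-related family, showed the same order at 467 and 389 in the scrambled line, 104 and 108 in the untransfected line, and 28.6, 35.5 and 44.4 on the clone arrays. Kcna4, a voltage-gated potassium channel, did so too at 1195 and 1034 in the scrambled line, 132 and 374 in the untransfected line, and 51.9, 64.1 and 70.1 on the clone arrays, its untransfected passages differing from each other more than its clones did. Avpr1a, the vasopressin receptor that signals through phospholipase C, read 197 and 163 in the scrambled line and 27.6 to 61.9 on the other 8 arrays, a log2 difference of 2.21 ± 0.39.

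Secreted products formed another group. Cxcl10, the interferon-induced chemokine that draws T cells, whose promoter is shown above, read 346 and 488 in the scrambled line, 117 and 88.3 in the untransfected line, and 73.9, 81.5 and 116 on the clone arrays. The untransfected and clone arrays overlapped, at a log2 difference of 2.18 ± 0.27. Draxin, a secreted axon guidance protein that also antagonises Wnt signalling, read 341 and 519.7 in the scrambled line, 94.0 and 47.6 in the untransfected line, and 40.0, 47.0 and 56.8 on the clone arrays. Its untransfected passages differed, the first lying above the clones and the second among them. Vegfd, a growth factor for lymphatic vessels, read 402 and 463 in the scrambled line, 145 and 132 in the untransfected line, and 70.8, 96.6 and 105 on the clone arrays. Both untransfected arrays were above the clones and below the scrambled line. Ces5a, a carboxylesterase, read 1062 and 787 in the scrambled line, 291 and 308 in the untransfected line, and 116, 198 and 297 on the clone arrays. It was among the high genes nearest to the limit, and its clones spread over a wide range.

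The remaining high genes act in vesicles, lipid transport and transcription. Abca1, which exports cholesterol from cells, had a pair of probe sets past the rule, the first reading 257 and 247 in the scrambled line, 56.8 and 56.0 in the untransfected line, and 59.7, 71.0 and 85.8 on the clone arrays. The second read 895 and 1001 in the scrambled line, 305 and 223 in the untransfected line, and 269, 298 and 357 on the clone arrays, and a further pair also had both scrambled arrays above the other 8, by smaller margins. Rhox5, an X-linked homeobox gene, read 1074 and 1149.5 in the scrambled line, 234 and 329 in the untransfected line, and 112, 134 and 138 on the clone arrays. Untransfected cells were again intermediate. Sv2b, a synaptic vesicle protein, read 115 and 185 in the scrambled line, 33.6 and 30.4 in the untransfected line, and 23.4, 26.3 and 36.4 on the clone arrays. A brighter Sv2b probe set did not stand apart, at 1999.7 and 2651 in the scrambled line against 2071 to 3017 elsewhere, so the call rests on 1 of its 3 probe sets. Unc13d, which primes secretory granules for release, read 547 and 319 in the scrambled line against 70.8 to 106 on the other 8 arrays.

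**Figure D2:**
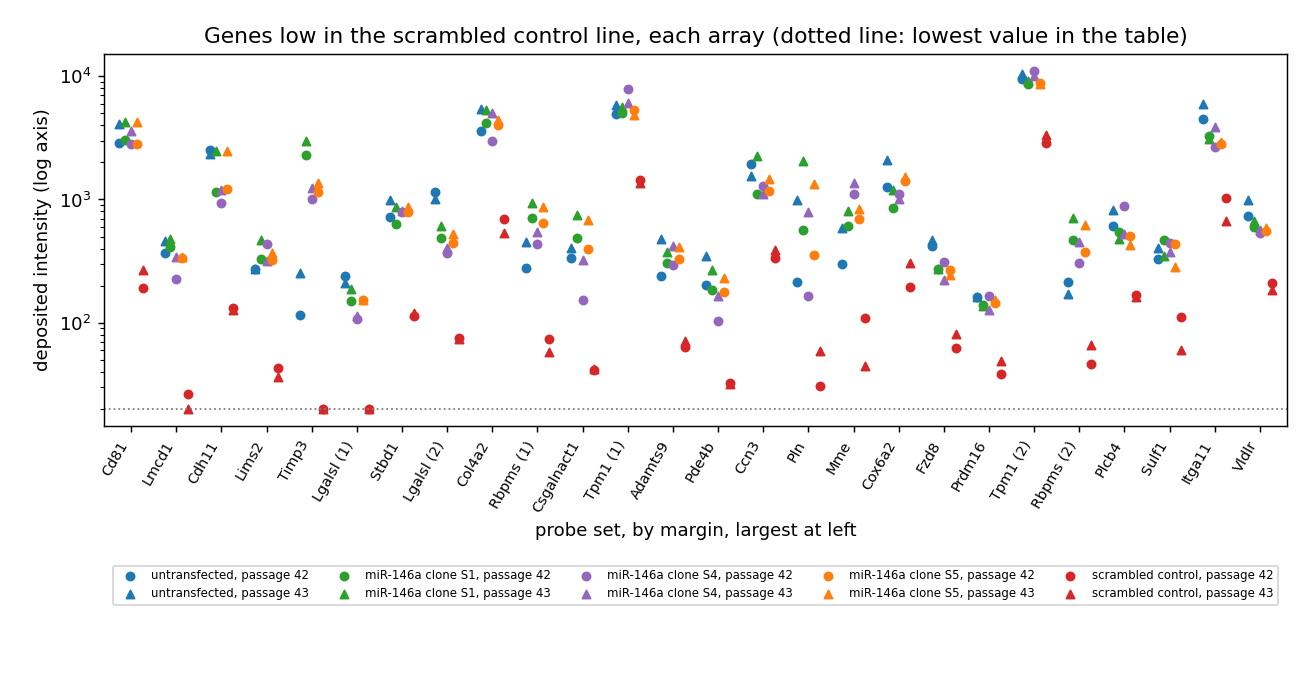
Deposited intensity (log axis) of the 26 low probe sets on each of the 10 arrays, ordered by margin; colours are lines, circles passage 42 and triangles passage 43, and the dotted line is the lowest value in the table, 20. Both scrambled arrays sit below the other 8 for every probe set, as the rule requires, and the scrambled values of Timp3 and of 1 Lgalsl probe set lie on the dotted line, as does the passage 43 value of Lmcd1.

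Low genes of the contractile and muscle programme included a tropomyosin. Tpm1, which lines actin filaments and whose promoter is shown above, read 1433 and 1361 in the scrambled line, 4907 and 5838 in the untransfected line, and 4871, 5488 and 7916 on the clone arrays. Its second low probe set read 2896 and 3338 in the scrambled line, 9554 and 10488 in the untransfected line, and 8633, 9007 and 11024 on the clone arrays. Both had every scrambled array below every other array, as did 4 of the 5 further Tpm1 probe sets; the exception reached 26.5 in the scrambled line against a lowest other value of 26.3. In bulk RNA such as this, fewer cells of a type and less RNA per cell cannot be told apart. Pln, phospholamban, which restrains the calcium pump of the sarcoplasmic reticulum, read 30.7 and 58.8 in the scrambled line, 216 and 989.9 in the untransfected line, and 164, 679 and 2036 on the clone arrays. In each of the 5 lines it was higher at passage 43, and a second Pln probe set gave 64.6 and 83.5 in the scrambled line against 154 to 1572 elsewhere.

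Lmcd1, a LIM-domain cofactor of transcription, read 26.5 and 20 in the scrambled line, 365 and 461 in the untransfected line, and 227, 345 and 477 on the clone arrays. The second scrambled array was at the lowest value, so the log2 difference of -3.98 ± 0.30 is limited by it. Lims2, an adaptor of integrin adhesions, read 43.0 and 36.2 in the scrambled line, 271 and 275 in the untransfected line, and 315, 349 and 471 on the clone arrays. The untransfected arrays lay below all 6 clone arrays and well above the scrambled ones. Rbpms, an RNA-binding protein that directs splicing in smooth muscle, read 73.3 and 58.1 in the scrambled line, 280.0 and 451 in the untransfected line, and 432, 675 and 938 on the clone arrays. Its second low probe set read 45.9 and 66.3 in the scrambled line, 212 and 171 in the untransfected line, and 304, 462 and 709.9 on the clone arrays. On the second the untransfected arrays lay below all 6 clone arrays, and on the first the passage 43 untransfected array lay above the lowest clone array. A further Rbpms probe set was close to level, at 59.1 and 53.4 in the scrambled line against 58.2 to 72.2 elsewhere. Cox6a2, the muscle form of a cytochrome c oxidase subunit, read 195 and 308 in the scrambled line against 847 to 2083 elsewhere.

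Genes of the matrix and its turnover made up the next group. Col4a2, a chain of the type IV collagen of basement membranes, read 690.4 and 536 in the scrambled line, 3563 and 5383 in the untransfected line, and 2973, 4291 and 5287 on the clone arrays. Untransfected and clone arrays overlapped, and the log2 difference was -2.81 ± 0.12. Timp3, the matrix-bound inhibitor of metalloproteases, read 20 and 20 in the scrambled line, 117 and 252 in the untransfected line, and 1004, 1299 and 2981 on the clone arrays. On this probe set both scrambled arrays were at the lowest value, so the mean of the other lines on the log2 scale was at least 44.4-fold higher. The log2 difference was -5.47 ± 1.67, and -3.10 against the untransfected line alone, whose arrays lay far below the clones. Timp3 had 3 further probe sets, and on 1 of them the scrambled line, at 52.7 and 56.3, overlapped the untransfected line at 44.2 and 53.1. Another gave 84.9 and 41.7 in the scrambled line, 205 and 375 in the untransfected line and 1384 to 3909 on the clone arrays. Its log2 difference was smaller, at -4.38.

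Adamts9, a protease that cuts large proteoglycans, read 63.4 and 71.2 in the scrambled line, 241 and 475 in the untransfected line, and 293, 352 and 422 on the clone arrays. The untransfected passages bracketed the clones. A second, dimmer Adamts9 probe set went the other way, at 78.7 and 88.5 in the scrambled line against 56.0 to 76.7 elsewhere. Csgalnact1, an enzyme that starts chondroitin sulfate chains, read 41.3 and 42.0 in the scrambled line, 336 and 405 in the untransfected line, and 152, 442 and 743 on the clone arrays. Its clones spread widely, clone S4 being lowest at 152 and 324. Sulf1, which trims sulfate groups from heparan sulfate, read 111 and 60.4 in the scrambled line against 283 to 473 elsewhere. Mme, the surface peptidase neprilysin, read 109 and 44.3 against 302 to 1363, and Ccn3, a matricellular protein, 333 and 386 against 1101 to 2261. On the member probe sets of all of these the scrambled arrays lay below every other array, as the rule requires, while a second Sulf1 probe set did not stand apart, at 38.1 and 43.7 against 29.5 to 49.8.

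Adhesion and surface genes held the widest low margin. Cd81, a tetraspanin that organises receptors in the membrane and whose promoter is shown above, read 193 and 269 in the scrambled line, 2865 and 4066 in the untransfected line, and 2796, 3308 and 4253 on the clone arrays. Untransfected and clone arrays overlapped over a narrow range, and the log2 difference of -3.90 ± 0.07 exceeded that of every other low gene but Timp3 and Lmcd1. Cdh11, the cadherin of mesenchymal cells, read 132 and 126 in the scrambled line, 2510.4 and 2321 in the untransfected line, and 936, 1198 and 2476 on the clone arrays. The clones and the untransfected line overlapped, while 1 of its further probe sets did not stand apart, at 90.5 and 75.8 against 76.5 to 91.8. Itga11, the alpha chain of a collagen-binding integrin, read 1036 and 672 in the scrambled line, 4485 and 5928 in the untransfected line, and 2646, 3001 and 3893 on the clone arrays. Both untransfected arrays were above all 6 clone arrays.

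Signalling and other genes completed the low direction. Fzd8, a Wnt receptor, read 62.3 and 81.3 in the scrambled line, 420.4 and 474 in the untransfected line, and 221, 270.1 and 313 on the clone arrays. Vldlr, a lipoprotein and reelin receptor, read 209.6 and 183 in the scrambled line, 735 and 998 in the untransfected line, and 531, 577 and 671 on the clone arrays. In both genes the untransfected arrays were above the clones, and all 3 further Vldlr probe sets had the scrambled arrays below the other 8, with log2 differences of -1.62 to -1.54. Pde4b, which breaks down cyclic AMP, read 32.6 and 31.6 in the scrambled line against 104 to 345 elsewhere. Plcb4, a phospholipase C driven by G proteins, read 167 and 162 against 431 to 888, and Prdm16, a transcription factor of brown fat, 38.7 and 48.6 against 128 to 165.

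Stbd1, which tethers glycogen for autophagy, read 113 and 120.2 in the scrambled line, 727 and 989 in the untransfected line, and 628, 802 and 876 on the clone arrays. The other lines overlapped, at a log2 difference of -2.79 ± 0.09. Lgalsl, a galectin-like protein, had a pair of low probe sets, the brighter reading 75.3 and 74.4 in the scrambled line, 1156 and 1012 in the untransfected line, and 365, 466 and 613 on the clone arrays. The second was at the lowest value on both scrambled arrays and read 238 and 209 in the untransfected line and 107, 152 and 187 on the clone arrays. On that probe set the mean of the other lines on the log2 scale was thus at least 7.92-fold higher, beside 7.69-fold on the brighter.

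Of the 42 genes, 24 had 1 probe set and 18 had several. The 18 genes had 29 further probe sets outside the rule, of which 1 was at the lowest value on every array. Of the other 28, 24 lay on the same side as the member and 18 had both scrambled arrays beyond the other 8. Applied to each line in turn with all genes kept, the same rule gave 21 high and 30 low probe sets for the scrambled line and 28 high and 21 low for the untransfected line. It gave 0 and 0 for clone S1, 0 and 0 for clone S4 and 0 and 1 for clone S5, where the other clones stand among the arrays to be exceeded.

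The rule asked for no difference between the untransfected line and the clones, so these were compared by test. It did use the highest or lowest of their arrays, which limits how high or low those arrays could lie. The shares called among members were therefore not independent of the choice of genes. They are given beside those of all probe sets as a description, from which no excess can be read. This also holds for the tests among clones and between passages below. Between the untransfected line and the mean of the 3 clones, limma called 5 of the 20 high probe sets (25%) and 7 of the 26 low ones (26.9%), beside 8.63% of all 27520 probe sets tested and 12.8% of the 16596 with at least 2 arrays at 100 or more. The 5 high ones were all higher in the untransfected line, a direction called for 4.51% of all tested. Kcna4 differed by 1.86 (SE 0.32, limma adjusted p = 0.0136), Mrgprf by 1.59 (SE 0.14, limma adjusted p = 0.000698) and Cd248 by 1.59 (SE 0.18, limma adjusted p = 0.00236) on the log2 scale. Rhox5 differed by 1.13 (SE 0.15, limma adjusted p = 0.0045) and Vegfd by 0.58 (SE 0.13, limma adjusted p = 0.0362). On these probe sets the genes were thus highest in the scrambled line, as the rule requires, intermediate in the untransfected line and lowest in the clones. The median over the 20 high probe sets was 0.26, beside 0.01 over all tested.

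Of the 7 low probe sets, 4 were higher in the untransfected line and 3 lower, beside 4.51% and 4.12% of all tested. Lgalsl was higher on both probe sets, by 1.21 (SE 0.12, limma adjusted p = 0.00121) and 0.66 (SE 0.10, limma adjusted p = 0.00889), Fzd8 by 0.76 (SE 0.15, limma adjusted p = 0.0242) and Vldlr by 0.55 (SE 0.13, limma adjusted p = 0.0379). Timp3 differed by -3.16 (SE 0.26, limma adjusted p = 0.000618). The Rbpms probe sets differed by -1.31 (SE 0.27, limma adjusted p = 0.0259) and -0.91 (SE 0.22, limma adjusted p = 0.0461). On these probe sets the line means of Timp3 and Rbpms were therefore lowest in the scrambled line, as the rule requires, next in the untransfected line and highest in the clones. Another probe set of each gene, described above, did not show this order. The median over the 26 was 0.10. Both untransfected arrays lay above all 6 clone arrays for 6 high and 5 low probe sets, beside 13.7% of all tested, and below them for 2 high and 4 low, beside 12.3%.

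When each array was left out in turn, Mrgprf, Cd248, Rhox5, Kcna4, Timp3 and both Lgalsl probe sets passed in all 10 fits, whereas the first Rbpms probe set described passed in 0, Vegfd and Vldlr in 1 each, Fzd8 in 4 and the other Rbpms probe set in 5. The low count fell from 7 to 3 without the passage 43 array of the untransfected line, of clone S1 or of clone S5, and to 4 without the passage 42 array of any of these or the passage 43 array of clone S4. With line means as samples, this comparison left out the scrambled line and set 1 untransfected value against 3 clone values. Most of the 7 low probe sets, Timp3 among them, then no longer passed limma's threshold.

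**Figure D3:**
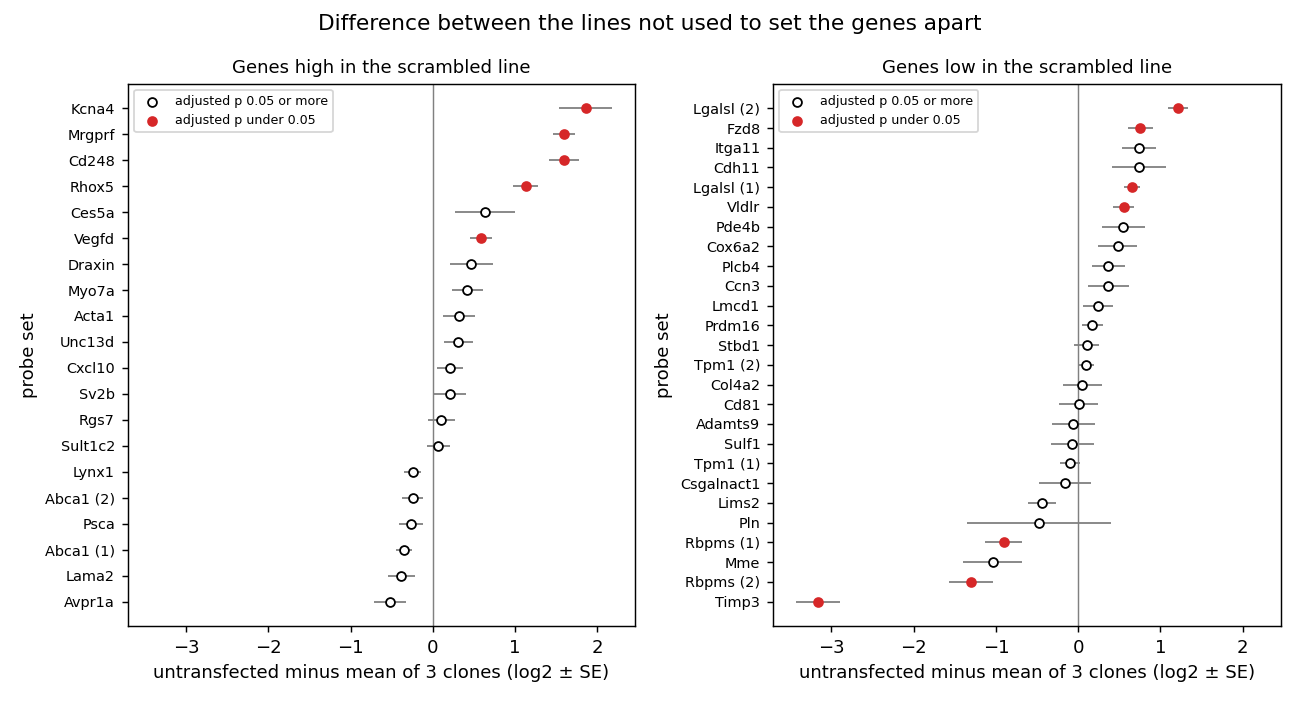
Difference between the untransfected line and the mean of the 3 clones (log2, points, with the SE as bars) for the 20 high probe sets at left and the 26 low ones at right; filled points have a limma adjusted p under 0.05. The 5 filled points at left are all above 0, and those at right lie on both sides, from -3.16 for Timp3 to 1.21 for Lgalsl.

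Differences among the 3 clones were called by limma's F test for 0 of the 46 probe sets, beside 0.0327% of all tested (9 probe sets). At an unadjusted p under 0.05 there were 4 of the 20 high and 5 of the 26 low probe sets. The share of all tested at that level was not counted, so no excess can be read from these counts. The largest range among low probe sets was that of Pln, 1.57 on the log2 scale between clones S1 and S4, with Csgalnact1 next at 1.44 and Timp3 after it at 1.23.

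Between passages 43 and 42, with the line as a block, limma called 0 of the 20 high and 2 of the 26 low probe sets (7.69%), beside 5.52% of all tested (2.43% higher and 3.09% lower) and 11.7% of the brighter ones, so the low share was near the background. At an unadjusted p under 0.05 there were 2 high and 10 low probe sets, and here too the share of all tested at that level was not counted. Pln rose by 1.84 (SE 0.18, limma adjusted p = 0.00938) and Cd81 by 0.48 (SE 0.06, limma adjusted p = 0.0127) on the log2 scale, each in 5 of 5 lines. For Pln the change was 0.94 in the scrambled line, 2.20 in the untransfected line, and 1.85, 2.28 and 1.92 in clones S1, S4 and S5. For Cd81 it was 0.48, 0.50, 0.48, 0.34 and 0.59 in the same order. Both calls were lost when any clone array was left out, at adjusted p from 0.0603 to 0.0949, and without the line term, at 0.498 and 0.907. With any clone array left out, 0 probe sets of the whole table were called. Without either scrambled array 4 low probe sets were called, and without either untransfected array 3 low and 2 high ones. Of the 26 low probe sets 21 had a positive change, with a median of 0.18 beside -0.0012 over all tested. Whether this count differs from that of other probe sets was not tested.

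**Figure D4:**
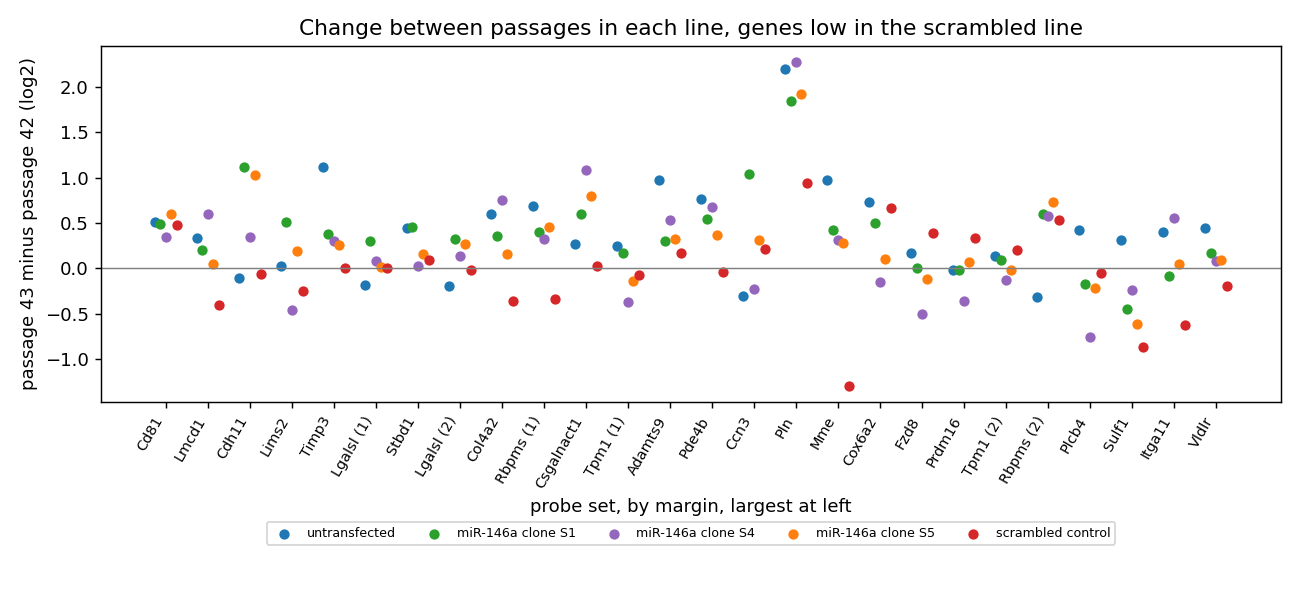
Passage 43 minus passage 42 (log2) in each of the 5 lines for the 26 low probe sets, ordered by margin; colours are lines. Pln lies highest, at 0.94 to 2.28, and Cd81 between 0.34 and 0.59 in all 5 lines.

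Related genes outside the rule were counted in lists. The lists were chosen with earlier results of these data known, so their counts are a description and no independent test. Of 30 measured genes of the contractile apparatus and actin cytoskeleton, 16 were lower and 2 higher in the scrambled line than in the mean of the other 4 lines (limma adjusted p under 0.05, 1 probe set per gene), beside 3.85% lower and 3.46% higher over 13286 genes. Without Tpm1 and Acta1, which the rule chose, 15 of 28 were lower and 1 higher, with a median of -0.53 beside 0.01. Tagln (transgelin, an actin-bundling protein of smooth muscle) read 4435 and 3588 in the scrambled line against 10130.4, 13162 and 18208 over the other 8 arrays. Myl9, the regulatory myosin light chain, read 889 and 1187 in the scrambled line against 1535, 3102 and 6409.8. Itga8, an integrin chain of stellate cells and smooth muscle, read 176 and 292 in the scrambled line against 629, 742 and 812. In these 3 genes both scrambled arrays were below all 8 others, as in 17 of the 28. Actg2, smooth muscle gamma actin, had the largest fall among these genes, at -2.22 (SE 0.46, limma adjusted p = 0.0296), over other arrays that ranged from 182 to 5530.4. Des (desmin) was the gene beside Acta1 that rose, by 0.70 (SE 0.14, limma adjusted p = 0.0267). The summed level of the 30 genes was 70617 and 77397 on the scrambled arrays and 109624 to 138793 on the others. The count of 16 became 9 without the passage 42 array of the scrambled line, 9 without its passage 43 array, and 2 with the 5 line means as samples. The 2 higher genes became 1 with the line means, and 1 without either array of the untransfected line, the scrambled line or clone S5 or the passage 42 array of clone S1.

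**Figure D5:**
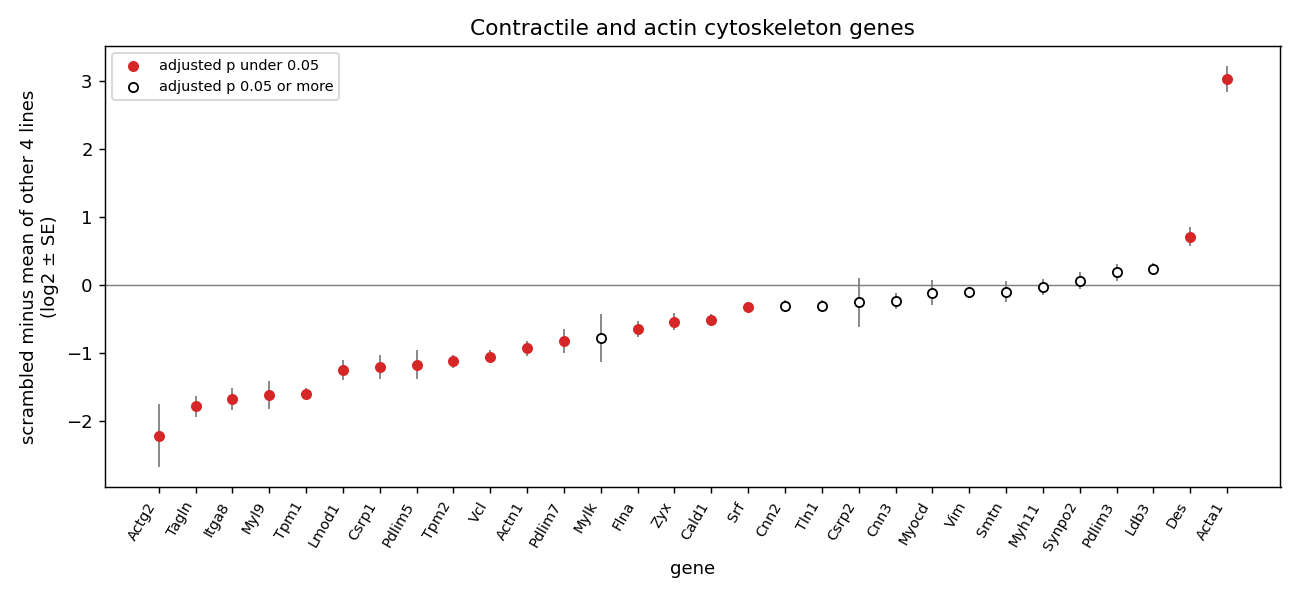
Scrambled line minus the mean of the other 4 lines (log2, points, with the SE as bars) for 30 contractile and cytoskeletal genes, ordered by value; filled points have a limma adjusted p under 0.05. The 16 filled points below 0 run from Actg2 at -2.22 to Srf at -0.33, and the filled points above 0 are Des and Acta1.

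The list counts that follow include Col4a2, Lama2, Cxcl10, Fzd8, Timp3 and Vldlr, which were chosen on this same contrast. Of 49 matrix genes, 10 were lower and 4 higher. Mgp, an inhibitor of calcification, differed by -3.49, but its scrambled arrays differed from each other at 360.0 and 4828. Nid2, a basement membrane linker protein, differed by -1.82 and read 257 and 398 in the scrambled line against 921, 1019.9 and 1935 over the other 8. Col4a2, lower, and Lama2, higher, are described above. Col15a1, a basement membrane collagen, was higher by 3.41, although its highest other array, at 3178, was above both scrambled arrays. The lower count became 3 without the passage 42 array of the scrambled line and 17 with passage as a replicate block.

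Of 40 genes of TGF-beta and BMP signalling, 8 were lower and 1 higher. The ligand Bmp4 read 93.3 and 49.4 in the scrambled line against 101, 523 and 693 over the other 8 arrays, and the ligand Tgfb3 591 and 567 in the scrambled line against 1262, 1719 and 3786. Ltbp2, a matrix protein related to the TGF-beta latency proteins, differed by -1.95 and Bambi, a pseudoreceptor, by -1.72, while Inhbb, an activin subunit, was higher by 1.58. Of 24 genes on a list of YAP and TEAD response, which holds targets as well as the TEAD factors and other parts of the pathway, 9 were lower (Tead1 among them) and 0 higher, beside 1 higher at an unadjusted p under 0.05. F3 (tissue factor) read 197 and 106 in the scrambled line against 461, 1043 and 1337, and Crim1 1363 and 767 in the scrambled line against 3192, 3968 and 5106. Ankrd1 differed by -1.33 and Ccn1 by -1.27, both standard readouts of YAP. Without the passage 43 array of the scrambled line the lower counts became 3 and 5, and with the 5 line means as samples 0 and 1.

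Of 32 interferon-response genes, 3 were higher (Cxcl10, Isg15 and Oasl) and 2 lower (Isg20 and Tap2). Isg15, a ubiquitin-like interferon-induced protein, read 163 and 438 in the scrambled line against 78.5, 101 and 142, its scrambled passages differing from each other. Without the passage 42 array of the scrambled line 10 were higher and 0 lower, and with passage as a replicate block 5 and 4. Of 28 Wnt genes, 1 was higher (Axin2) and 3 lower (Fzd8, Sfrp4 and Tcf7l2), and 3 were higher without that same array. Of 28 proteases and inhibitors, 5 were higher and 2 lower, the lower ones being Timp3 and Adamts1. Of the 5 higher, Mmp2 differed by 2.95, although its highest other array, at 7963, was above the passage 42 scrambled array, at 4041. Mmp10 was near the lowest value, at 26.6 and 27.5 in the scrambled line. The 5 became 1 to 4 with 1 array left out, 1 without the passage 43 array of the scrambled line, 2 with no filter and 0 with line means.

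Counts of higher and lower genes were 3 and 1 of 32 inflammatory genes, 3 and 5 of 37 growth factors and receptors, 1 and 0 of 22 cholesterol genes, 0 and 1 (Vldlr) of 35 stress genes of the endoplasmic reticulum, 0 and 2 of 21 p53 targets, and 1 and 2 of 29 hypoxia genes. These small counts moved with 1 array left out. The higher inflammatory genes ranged from 0 to 4, being 0 without the passage 42 array of the scrambled line or of clone S4, and the higher growth factor genes from 1 to 4, being 1 without the passage 43 array of the scrambled line. The higher cholesterol genes ranged from 0 to 8, being 8 without the passage 42 array of the untransfected line, which also gave 4 lower stress genes. The lower p53 targets became 0 without any array of the scrambled line or the clones, and the higher hypoxia genes 0 without any array but the passage 42 array of the scrambled line. The 30 DNA replication genes summed to 30209.6 and 34081.4 on the scrambled arrays, above all others at 12719.6 to 28166.5. The 30 mitosis genes summed to 31209.9 and 37709.5, overlapping the others at 16886.3 to 34028. Among the mitosis and the DNA replication genes limma called 0, with medians of 0.47 and 0.56, and 0 and 6 of them had an unadjusted p under 0.05. With passage as a replicate block 1 and 7 of these were called higher. In the main fit 2765 of the 13244 genes outside the members had an unadjusted p under 0.05.

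In the gene order of GRCr8, among 14161 placed array genes, the 42 genes lay on 17 chromosomes, and 2 pairs were at most 10 array genes apart. How many such pairs other sets of 42 genes would give was not tested. Psca and Lynx1, both high and both of the Ly6 family, were 4 apart, although the brighter Lynx1 probe set did not stand apart, as given above. Between them, Slurp1 read 92.0 and 98.4 in the scrambled line against 40.5 to 61.5 elsewhere, Slurp2 35.0 and 37.8 against 28.9 to 42.8, and Lypd2 was at the lowest value on all arrays. Slurp1 was thus also above all 8 other arrays in the scrambled line, below the level the rule asks for. Stbd1, low, and Cxcl10, high, were 5 apart. Next to Stbd1, Scarb2 (a lysosomal membrane protein) read 292 and 199 against 622 to 1391, and Cxcl11, a chemokine next to Cxcl10, 21.2 and 35.6 against 20 to 22.8. These neighbours were chosen after their values were seen.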

How the data were processed

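The 10 arrays (5 lines at passages 42 and 43) were deposited as 1 table of linear intensity values, which the authors made by RMA according to the submitters' processing notes. Its version, and the origin of the lowest value of 20, are not stated in the sources used. Log2 of the deposited intensity was tested with limma 3.58.1 in R 4.3.3 (lmFit and eBayes, a coefficient for each line; 5 residual degrees of freedom, or 4 for passages with line as a block), with Benjamini-Hochberg adjustment over the 27520 probe sets not at 20 on all arrays and not array controls. The number of arrays limits the precision. Scripts ran in Python 3.11.15 and were tested on simulated data. Symbols came from the platform annotation; all 46 member probe sets matched RefSeq (GRCr8) by gene identifier, and 0 symbols changed. Values per array are given for the 12 genes per direction with the widest margins, genes on a list, genes with several member probe sets, those nearest the limits and up to 6 called per direction in the other tests; up to 4 genes are named per list. Remaining members are given by their range, and a few further list genes, probe sets and neighbours were chosen after their values were seen. The members, 21 gene lists and alternatives were chosen with earlier results of these data known. Deviations between passages correlated at r from 0.136 to 0.648 in all 10 pairs of lines, so the passage number pairs the samples. The main fits between lines did not use this pairing. It was used only in the alternative with passage as a replicate block, where the 1801 probe sets called for the scrambled line became 3154. Alternatives covered scaling, filters, pseudocount, passage block, line means and left-out arrays.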

Additional observations from a re-analysis of the deposited data

How the results depend on the processing

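Every limma call on a named member kept its direction under the alternatives run. A ratio of 2 and 0.5 gave 36 high and 54 low probe sets, a stricter ratio of 3 and its inverse 13 and 14, and leaving out the untransfected line 57 and 75. Leaving out 1 array gave 20 to 45 high and 26 to 53 low; the highest counts, 45 and 53, came without the passage 42 array of the scrambled line, and 33 and 46 came without its passage 43 array, since 1 array is then asked to pass. The 1801 probe sets called between the scrambled line and the others became 1123 with no filter, 3154 with passage as a replicate block, 93 with the 5 line means as samples, and 627 to 2374 with 1 array left out; it was 897 and 627 without the passage 42 and the passage 43 array of the scrambled line. For the untransfected line against the clones, the 5 high members became 3 with no filter and 4 to 5 with 1 array left out, and the 7 low members 3 with no filter, 2 with line means and 3 to 5 with 1 array left out. For passage, the 2 low members became 5 among brighter probe sets, 0 with no replicate block (no line term), 4 without the scrambled line and 0 to 4 with 1 array left out, and the 0 high members 0 to 2, the 2 coming without either untransfected array. The passage block changed no call on a named member in the untransfected comparison. The causes of these changes were not tested. Values at 20 have no order, so differences of Timp3, Lgalsl, Lmcd1, Acta1 and Sult1c2 are limited by that floor, and the number of arrays limits every test.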
